A study of Saccharomyces cerevisiae with 18 samples.

Results

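The cytosolic ribosome of budding yeast is built from a large and a small subunit, and most of its proteins are encoded by a pair of duplicated genes, copy A and copy B. Their transcription is driven by Rap1, Hmo1, Fhl1, Ifh1 and Sfp1 under the TOR and protein kinase A pathways, so that their transcripts, together with those of the ribosome biogenesis genes, rise with growth rate and fall under stress. The genes described here were chosen by name alone, as every row whose symbol begins with RPL or RPS and a digit, or with RPP0, RPP1 or RPP2. This took 138 of the 7124 rows of the count table. By class, 76 encode proteins of the large subunit, 56 proteins of the small subunit and 5 the P stalk (RPP0, RPP1A, RPP1B, RPP2A and RPP2B), which recruits translation factors. The remaining row, RPP1 (YHR062C), is a subunit of the tRNA-processing enzyme RNase P that the name rule also catches, and it was kept in the counts of 138 and left out of the counts of 137. The 137 genes form 59 A and B pairs and 19 single-copy genes and encode 78 proteins.

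Expression was measured in BY4705 MATα cells whose chromosomal STE12 had been deleted, in the wild type group as well as in the others, and which carried STE12 with its own flanking sequences on the low-copy plasmid pRS415 with a LEU2 marker. STE12 encodes the transcription factor of the mating and invasion pathways. The plasmid gene was 1 of 6 variants with a single substitution in the DNA-binding domain (A160P, K146D, K150A, K150I, K152L or S158H) or wild type (WT). The study describes reduced mating for A160P, K146D and K152L and mating like wild type for K150A, K150I and S158H, while K146D, K150A, K150I and K152L were hyper-invasive and S158H invasion-defective. Cells were in exponential phase, with 5 replicates of each genotype and 35 libraries in all. The labels list replicates 1 and 2 under 1 sample and replicates 3 to 5 under another, called experiment 1 and experiment 2 here. Nothing in the labels says whether replicates were separate transformants or cultures, so p-values measure the spread between these libraries only. In a separate experiment, Ste12 or a variant fused to the PiggyBac transposase was induced from the GAL1 promoter in cells that kept their own STE12, and transposon insertions were counted as calling cards (14 libraries).

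The unit of expression was the unique molecular identifier (UMI), with 1 UMI meant to stand for 1 cDNA molecule primed at the poly(A) tail, so that levels were not divided by gene length. Libraries held between 1039390 and 5481822 UMIs, with 1039390 to 2850293 in replicates 4 and 5 and 2527748 to 5481822 in replicates 1 to 3. Levels are given as CPM, the count scaled to a common library total with TMM factors. All 138 rows passed the filter on low counts, and all 137 ribosomal protein genes had at least 1 UMI in every library. The 4 α-specific genes tested as a check of mating type summed to 542 to 757 CPM in A160P cells, to 1587 CPM or more in every library of the other variants and to 2875 to 4037 CPM in WT cells, against 20.98 to 144 CPM for the 6 a-specific genes over all libraries.

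The ribosomal protein genes took 14.5% to 23.9% of all UMIs in a library, and their share varied more between replicates of 1 genotype than between the means of the genotypes. It averaged 20.95% ± 2.96 in A160P, 20.4% ± 0.685 in K146D, 21.1% ± 1.93 in K150A, 20.8% ± 2.78 in K150I, 20.8% ± 3.70 in K152L and 20.3% ± 2.82 in S158H cells, against 19.6% ± 2.00 in WT cells (SD, n = 5 each). The mean of each variant was higher than that of WT by less than the SD of the 5 WT libraries. Replicate 4 was the lowest library in each of the 6 variants, with 16.1% in A160P, 19.5% in K146D, 18.2% in K150A, 16.1% in K150I, 14.5% in K152L and 15.6% in S158H. In WT the lowest was replicate 5, with 16.6%, whereas WT replicate 4 held 22.1% and replicate 5 of the variants 21.4% to 22.9%.

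**Figure D1:**
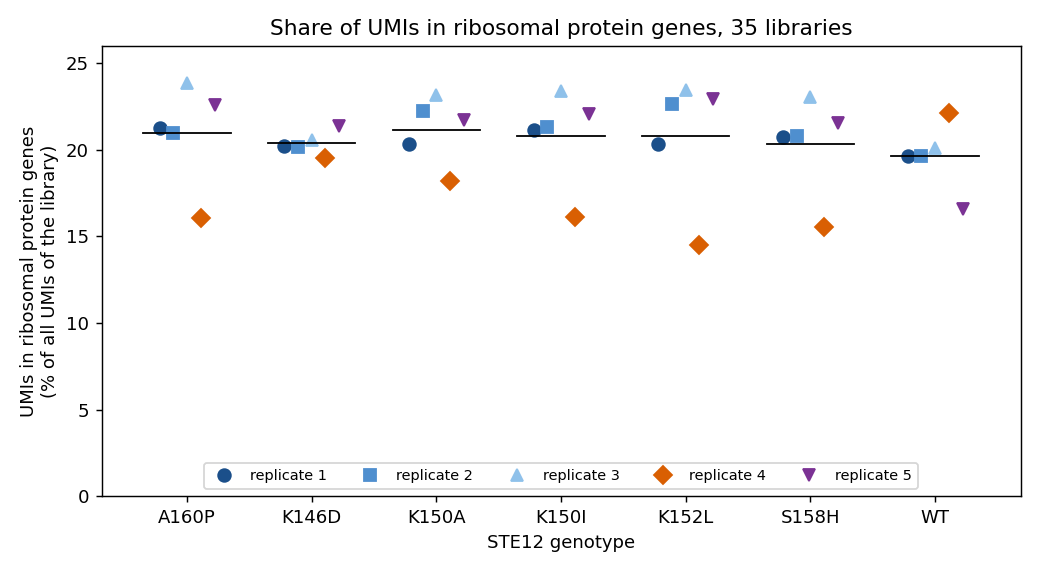
Share of all UMIs that fell in the 137 ribosomal protein genes (percent, y axis) in each of the 35 libraries, by STE12 genotype (x axis); colour and shape give the replicate number and the black line the mean of 5 replicates. Replicate 4 lies lowest in the 6 variants and replicate 5 lowest in WT, at 16.6%, and in replicates 1 to 3 the WT libraries lie below all variant libraries.

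Within replicates 1 to 3 the genotypes separated. The 18 variant libraries held 20.2% (lowest), 21.2% (median) and 23.9% (highest) of their UMIs in ribosomal protein genes, against 19.6%, 19.7% and 20.1% in the 3 WT libraries. The 2 ranges did not overlap, but K146D (20.2%, 20.2% and 20.6%) lay next to WT, and the distance was widest in replicate 3, where A160P, K150A, K150I, K152L and S158H held 23.0% to 23.9%. In replicates 4 and 5 the shares were 14.5% to 22.9% in the variants and 16.6% and 22.1% in WT, so the groups overlapped. Counting error was small beside these differences, as the 95% Wilson interval in WT replicate 5 ran over 16.5% to 16.6%, but such intervals leave out the spread between libraries.

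Large- and small-subunit genes kept a nearly fixed proportion. The ratio of small- to large-subunit UMIs was between 0.751 and 0.772 in the 14 libraries of replicates 4 and 5 and between 0.774 and 0.808 in the 21 libraries of replicates 1 to 3, with no overlap between the groups. The P stalk varied more, with 2.66% to 3.01% of the ribosomal protein UMIs in replicates 4 and 5 and 2.74% to 3.53% in replicates 1 to 3. RPP0, the protein that anchors the stalk to the large subunit, was low in K150A replicate 2 (2251 CPM) and K152L replicate 2 (2231 CPM), against 3191 to 4304 CPM in all other libraries of replicates 1 to 3.

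Levels differed widely between genes. The highest were RPS31 (8229 ± 1782 CPM, SD over 35 libraries), which encodes a fusion of ubiquitin to a small-subunit protein, RPL3 (6226 ± 1239 CPM), whose protein lies by the peptidyl transferase centre, RPS3 (5098 ± 924 CPM) and RPS2 (5025 ± 915 CPM). All of these are single-copy genes. The lowest ribosomal protein genes were RPL39 (15.8 ± 5.44 CPM), RPS28B (73.7 ± 37.4 CPM), RPL35B (78.4 ± 16.1 CPM) and RPL15B (82.9 ± 11.96 CPM). The last 3 have a more abundant copy A, whereas RPL39 is single-copy and its level was at most 111 UMIs in a library. When the copies of each pair were added, the 59 duplicated proteins had a median of 2485 CPM and the 19 single-copy proteins a median of 2930 CPM, and the quartiles of all 78 proteins lay at 1631 and 3318 CPM. RPL39 and RPS20 (183 ± 61.2 CPM), both single-copy, lay farthest below this range. How reads were counted by gene is not given in the sources used here. Whether these low counts measure the transcript level was not tested.

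Over the 35 libraries the median ribosomal protein gene had an SD of 0.26 in log2 CPM, against 0.27 for all 6139 genes tested. It was 0.26 for the 341 other genes whose mean CPM was at least the 10th percentile of the ribosomal protein genes, a floor without an upper limit. The steadiest were RPL9B (SD 0.13), RPL22B (0.14), RPS30A (0.15), RPL31B (0.16) and RPS27A (0.18). The most variable were RPS28B (0.89), RPL15A (0.70), RPL10 (0.64), RPS20 (0.59) and RPL39 (0.51).

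The main comparison asked whether ribosomal protein genes differed between each Ste12 variant and WT. No gene of the 138 passed edgeR's quasi-likelihood test in any variant at a Benjamini-Hochberg adjusted p under 0.05, although nearly all of them had a small positive log2 fold change. The count was 0 of 138 in A160P, K146D, K150A, K150I, K152L and S158H, beside 0.928%, 0.7%, 0.586%, 0.0652%, 0.896% and 0% of all 6139 genes tested (57, 43, 36, 4, 55 and 0 genes). At an unadjusted p under 0.05 the same test gave 1, 0, 0, 1, 1 and 0 of the 138, beside 4.79%, 3.84%, 7.74%, 2.57%, 5.64% and 2.92% of all genes (179 genes in S158H). DESeq2 gave 0 of the 138 in each variant, beside 1.12%, 0.928%, 0.945%, 0.147%, 1.21% and 0.0326% of all genes (2 genes in S158H). The log2 fold change was above 0 for 138 of 138 in A160P, 134 in K146D, 133 in K150A and 136 in K150I, K152L and S158H, whereas 51.1%, 51.3%, 52.6%, 50.1%, 51.1% and 48.4% of all genes were above 0 in the same order. Its median over the 138 was 0.15 in A160P, 0.07 in K146D, 0.11 in K150A, 0.12 in K150I, 0.13 in K152L and 0.08 in S158H, beside medians between -0.01 and 0.01 over all genes. The 6 comparisons share the 5 WT libraries, so their common sign is not 6 separate observations. Nor are the 138 genes separate observations, since their summed share moved between 14.5% and 23.9% from library to library.

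The replicate group moved with this result. In replicates 4 and 5 alone the median over the 138 was 0.02 in A160P, 0.06 in K146D, -0.01 in K150A, -0.01 in K150I, -0.04 in K152L and -0.06 in S158H, and 0 of the 138 were called in each, beside 0.237%, 0.186%, 0.0338%, 0%, 0.135% and 0% of all genes. At an unadjusted p under 0.05 it was again 0 of the 138 in each, beside 1.93% to 6.94% of all genes. In replicates 1 to 3 alone the median was 0.21, 0.08, 0.18, 0.19, 0.21 and 0.16 in the same order, and 7, 0, 1, 2, 7 and 1 of the 138 were called, all higher in the variant, beside 1.08%, 0.267%, 2.2%, 0.566%, 2.1% and 1.07% of all genes called higher. There 64, 3, 31, 51, 72 and 29 of the 138 had an unadjusted p under 0.05, beside 16.0%, 7.40%, 16.8%, 11.7%, 17.8% and 14.9% of all genes. Over all replicates, leaving out WT replicate 5 gave medians between 0.00 (K146D) and 0.08 (A160P), and leaving out WT replicate 4 gave medians between 0.11 (K146D) and 0.20 (A160P). Leaving out replicate 4 of the variant gave 0.25 in A160P, 0.18 in K150A, 0.22 in K150I, 0.27 in K152L and 0.18 in S158H, and leaving out replicate 3 gave 0.07 in A160P, 0.05 in K150A, 0.07 in K152L and 0.01 in S158H, with 0 of the 138 called in any of these fits. Without replicate 4 of every variant and replicate 5 of WT, the 7 libraries with the lowest ribosomal protein share, chosen by that share after seeing the data, the medians were 0.18, 0.03, 0.11, 0.15, 0.19 and 0.11 in A160P, K146D, K150A, K150I, K152L and S158H. In that fit 0 of the 138 were called, and 30, 0, 5, 12, 41 and 6 had an unadjusted p under 0.05, beside 8.10%, 4.13%, 8.90%, 4.77%, 9.39% and 5.98% of all genes. A difference between the replicate groups in the variant effect was not tested.

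**Figure D2:**
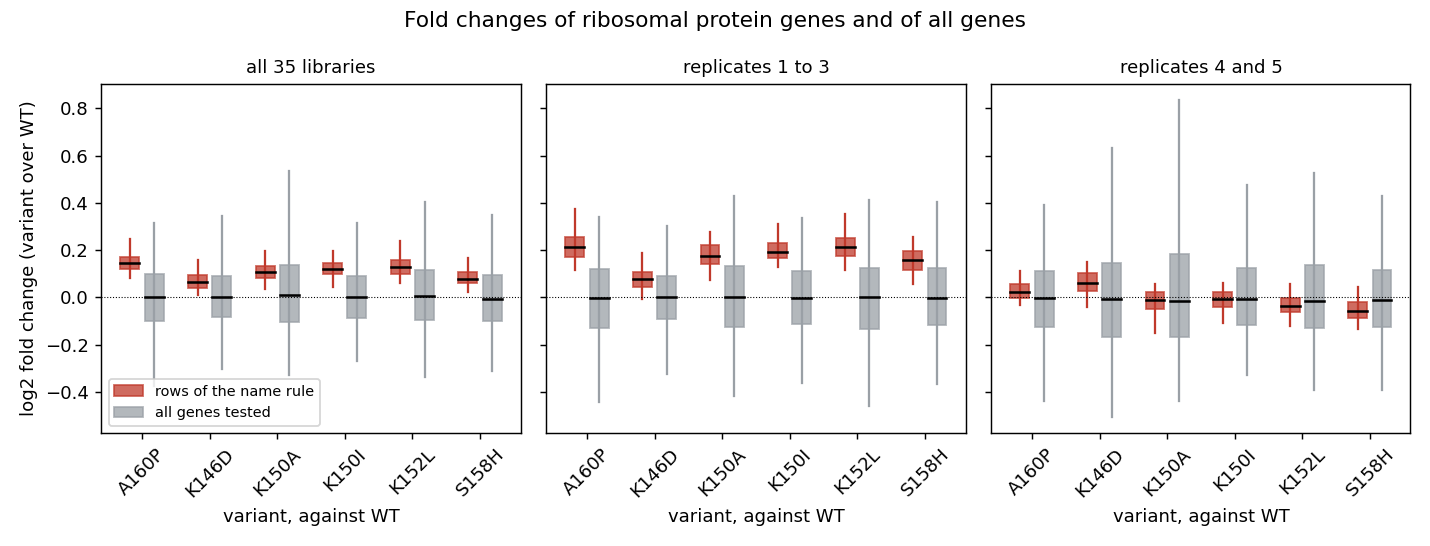
Log2 fold change of each variant over WT (y axis) for the 138 rows of the name rule (red) and for all genes tested (grey), fitted on all 35 libraries, on replicates 1 to 3 and on replicates 4 and 5; boxes span the quartiles, whiskers the 5th to 95th percentile, and black bars are medians. The medians of the 138 lie between 0.07 and 0.15 in all libraries, between 0.08 and 0.21 in replicates 1 to 3 and between -0.06 and 0.06 in replicates 4 and 5.

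Same-numbered libraries deviated together, and in replicates 1 to 3 a fit with the replicate number as a block, chosen after seeing the data, called many of these genes. It called 79 of 138 in A160P, 1 in K146D, 39 in K150A, 41 in K150I, 77 in K152L and 19 in S158H, all higher in the variant, beside 5.55%, 0.966%, 5.8%, 2.83%, 6.61% and 4.82% of all genes called higher. At an unadjusted p under 0.05 it gave 121, 12, 102, 118, 121 and 84 of the 138, beside 23.8%, 11.8%, 23.9%, 18.3%, 24.9% and 22.0% of all genes. With the block over all 5 replicates the count was 0 in every variant (6, 0, 2, 2, 3 and 0 at an unadjusted p under 0.05), beside 2.59%, 1.92%, 4.82%, 0.391%, 3.62% and 1.19% of all genes called in either direction, and 12.5%, 8.76%, 18.5%, 7.92%, 14.5% and 11.4% at an unadjusted p under 0.05. With the block in replicates 4 and 5 alone it was 0 as well (0, 0, 1, 0, 0 and 0), beside 0% to 0.254% of all genes called and 2.45% to 9.003% at an unadjusted p under 0.05. Over the 138, replicate 5 of 6 of the 6 variants correlated best with WT replicate 4 and replicate 4 of 5 of them with WT replicate 5, so a block that includes replicates 4 and 5 may pair unlike libraries, and the numbers were not exchanged here. The counts in replicates 1 to 3 depended on single libraries: without WT replicate 3 they were 19, 0, 7, 6, 30 and 2 in the same order, beside 2.88%, 0.696%, 4.13%, 1.59%, 4.97% and 3.78% of all genes called higher in that fit, and without WT replicate 2 they were 48, 0, 18, 18, 50 and 5, beside 4.07%, 0.546%, 4.17%, 1.92%, 4.65% and 2.94%. Without A160P replicate 1 or 3 the count in A160P was 48 and 18, beside 4.19% and 2.76%, and without replicate 2 it was 93, beside 4.50%. Leaving out any 1 library of K150I gave 11 to 17 in K150I, beside 1.51% to 1.85%, and any 1 of S158H gave 7 to 10 in S158H, beside 3.33% to 3.87%. Leaving out K150A replicate 2 or 3 gave 15 and 14, beside 4.10% and 4.19%, and K152L replicate 2 or 3 gave 32 and 37, beside 4.27% and 4.55%. The count rose without K150A replicate 1 (52 in K150A, beside 5.14%) and without K152L replicate 1 (97 in K152L, beside 6.08%). Without WT replicate 1 the counts were 79, 2, 51, 54, 87 and 35 in A160P, K146D, K150A, K150I, K152L and S158H. In that fit 4.83%, 0.711%, 5.09%, 2.79%, 5.89% and 4.17% of all genes were called higher. Leaving out libraries of K146D gave 0 to 2 in K146D, beside 0.629% to 0.910%. As above, the 138 are not separate observations in any of these counts.

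A further 9 genes were called in 5 variants under this block, namely RPS12, RPL8B, RPL40B, RPS25A, RPS18B, RPS22B, RPS2, RPS21A and RPS19B, and 39 of the 138 in none. Of the 138, 6.52% were thus called higher in 5 variants, beside 1.32% of all genes, and 28.3% in none, beside 88.9%. The gene called in all 6, as 0.267% of all genes were, was RPL6B, the less abundant copy for large-subunit protein L6. It stood at 1537, 1719 and 1779 CPM in A160P, 1466, 1458 and 1446 CPM in K146D, and 1352, 1506 and 1461 CPM in S158H cells of replicates 1 to 3, against 1242, 1233 and 1219 CPM in WT cells. All 18 variant values, 1352 to 1779 CPM, lay above the 3 WT values. In replicates 4 and 5 it stood at 715 and 1238 CPM in A160P, against 1051 and 712 CPM in WT, and the variants overlapped WT. Its log2 fold change within the block was 0.44 (SE 0.06, edgeR adjusted p = 2.0e-05) in A160P and 0.24 (SE 0.06, adjusted p = 0.028) in K146D.

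RPS22B, the less abundant copy for small-subunit protein S22, whose pre-mRNA intron is a known substrate of the RNase III Rnt1, had the largest log2 fold change of the 138 in replicates 1 to 3 in A160P, K152L and S158H. It stood at 296, 339 and 308 CPM in K152L cells and at 290, 311 and 325 CPM in A160P cells, against 225, 206 and 200.1 CPM in WT cells. In replicates 4 and 5 it stood at 291 and 436 CPM in K152L and at 324 and 387 CPM in A160P, against 387 and 346 CPM in WT. The division into replicate groups came from an earlier look at these data, so adjusted p-values within it are those of a chosen subset. In K152L and A160P, RPS22B lay above WT without overlap in replicates 1 to 3. It overlapped WT in replicates 4 and 5, where each genotype had 2 libraries. Its log2 fold change in replicates 1 to 3 alone, without the block, passed the test in 5 variants, namely A160P (0.55, edgeR adjusted p = 1.2e-04), K150A (0.40, adjusted p = 0.0045), K150I (0.38, adjusted p = 0.014), K152L (0.57, adjusted p = 6.7e-05) and S158H (0.43, adjusted p = 0.0039), and it was 0.19 (adjusted p = 0.50) in K146D. Over all 5 replicates it was 0.29 (SE 0.17, adjusted p = 1.0) in K152L.

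A further 13 genes also lay above all 3 WT values in each of the 18 variant libraries of replicates 1 to 3, which makes 14 of the 138, beside 0.684% of all genes (42 genes). They were RPL1B, RPL24B, RPL26A, RPL2A, RPL34B, RPL38, RPL40B, RPL5, RPP2A, RPS13, RPS17B, RPS21A and RPS25A, and these genes were chosen after their values were seen. RPL40B, a ubiquitin fusion of the large subunit, had 1112 (lowest), 1213 (median) and 1423 CPM (highest) in the variants, against 1040, 1042 and 1037 CPM in WT. RPS21A, of the small subunit, had 738, 830 and 1079 CPM in the variants, against 680, 665 and 681 CPM in WT. No gene of the 138 lay below WT in this way, again beside 0.684% of all genes, and in single variants 1 gene did so in K150I and 0 in the others, beside 11%, 7.22%, 11.1%, 8.76%, 10.6% and 9.55% of all genes in A160P, K146D, K150A, K150I, K152L and S158H. Taken 1 variant at a time, 91 of the 138 were above WT without overlap in replicates 1 to 3 in A160P, 44 in K146D, 45 in K150A, 92 in K150I, 57 in K152L and 60 in S158H, beside 10.1%, 7.28%, 9.86%, 8.58%, 9.59% and 9.55% of all genes. In all 5 replicates no gene of the 138 did so in any variant, beside 0.228%, 0.326%, 0.668%, 0.261%, 0.293% and 0.261% of all genes.

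**Figure D3:**
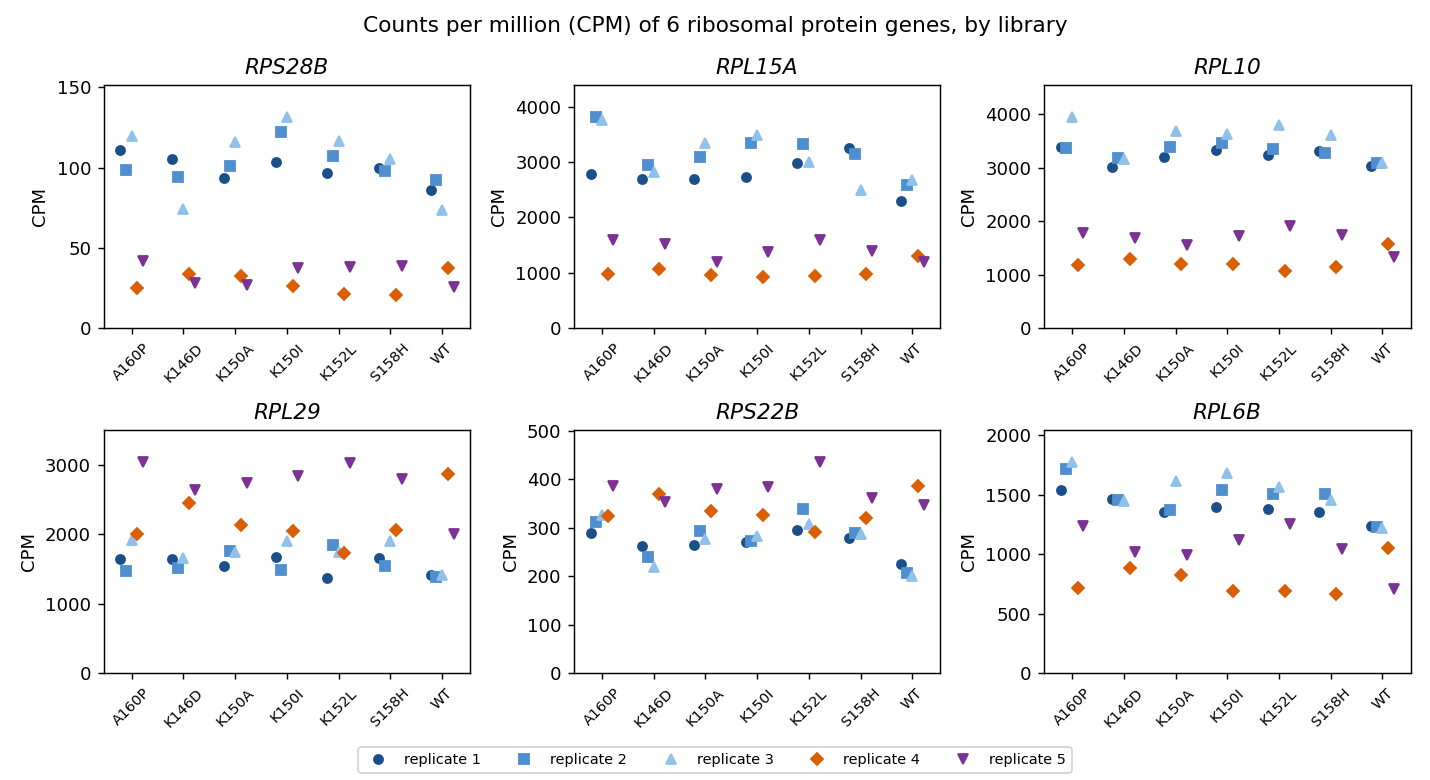
Level in CPM (y axis from 0) of 6 ribosomal protein genes in each of the 35 libraries, by STE12 genotype (x axis), with colour and shape for the replicate number. RPS28B, RPL15A and RPL10 lie lower in replicates 4 and 5 than in replicates 1 to 3 in every genotype, RPL29 lies higher in most, and for RPS22B and RPL6B the variants lie above the WT values in replicates 1 to 3 but overlap them in replicates 4 and 5, with K146D replicate 3 of RPS22B (219.8 CPM) below the highest of those WT values (224.9 CPM).

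Over all libraries, the largest fold changes in single variants did not pass the test, and several belonged to genes of low level. RPL35B, a large-subunit gene, stood at 82.4, 86.8, 114, 56.7 and 91.3 CPM in A160P cells (replicates 1 to 5) and at 91.3, 109, 92.0, 50.3 and 89.96 CPM in K152L cells, against 62.1, 68.6, 67.6, 76.3 and 58.0 CPM in WT cells. The ranges overlapped through replicate 4 of both variants, and the log2 fold changes were 0.38 (SE 0.18, adjusted p = 1.0) in A160P and 0.38 (SE 0.18, adjusted p = 0.84) in K152L. The others among the 3 highest of a variant were RPL15A and RPL6B in A160P (both 0.36), RPS21A and RPL6B in K146D (0.21 and 0.20, after RPL35B with 0.21), RPL39 and RPS21A in K150A (0.38 and 0.28, with RPL35B at 0.26), RPS28B, RPS21A and RPS27A in K150I (0.43, 0.26 and 0.25), RPS22B and RPS28B in K152L (0.29 and 0.28), and RPS28B, RPL39 and RPL41A in S158H (0.21, 0.20 and 0.19). RPS28B, RPL15A and RPL39 are among the 5 genes that differed most between the replicate groups. The lowest members stayed near 0, from -0.09 for RPS9A in S158H to 0.07 for RPL36B in A160P, with RPL42A (0.06) and RPL11B (0.07) in A160P, RPL15B (-0.02), RPL33B (-0.02) and RPS9A (-0.01) in K146D, RPS9A (-0.05), RPL15B (-0.05) and RPL8A (-0.01) in K150A, RPL15B (-0.06), RPS20 (-0.02) and RPS9A (0.02) in K150I, RPP0 (-0.04), RPL15B (-0.01) and RPL6A (0.03) in K152L, and RPL7B (-0.01) and RPL27A (0.01) in S158H.

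The genes that regulate, build or work with the ribosome did not pass the test either. Of 18 regulators of ribosomal protein genes, among them RAP1, FHL1, IFH1, HMO1 and SFP1, 0 were called higher or lower in any variant, and 2 values of all 6 variants had an unadjusted p under 0.05, namely TPK3 in S158H (-0.23, SE 0.11) and SFP1 in K146D (-0.26, SE 0.13). HMO1, a factor that binds many ribosomal protein promoters, had log2 fold changes of 0.04 to 0.12, and IFH1, the coactivator whose binding sets their output, of -0.06 to 0.08. The same count was 0 of 6 dedicated chaperones of ribosomal proteins, 0 of 8 ribosome-associated factors, 0 of 30 translation factors and 0 of 81 ribosome biogenesis genes in each variant, with 1 chaperone gene (TSR2 in K152L) and 1 translation factor (in K150A) at an unadjusted p under 0.05 and 0 called by DESeq2 in these 5 lists. The median over the ribosome biogenesis genes was 0.06, 0.01, -0.01, -0.04, -0.05 and -0.09 in A160P, K146D, K150A, K150I, K152L and S158H. Of 30 genes induced in the environmental stress response, 1 was called higher in K150A and 1 in K152L, beside 0.277% and 0.179% of all genes. In both it was HSP26, which encodes a small heat shock protein (log2 fold change 2.75, SE 0.46, and 2.05, SE 0.45), while DESeq2 called 2 in each. The replicate block moved the count of stress-induced genes to 13 higher in K150A, 5 in K152L, 8 in S158H and 3 in A160P, with 0 in K146D and K150I, beside 2.17%, 1.32%, 0.814%, 0.554%, 0.309% and 0.228% of all genes called higher in K150A, K152L, S158H, A160P, K146D and K150I. It also called 1 chaperone gene lower in K152L, beside 141 of 6139 genes called lower there. This was TSR2 (-0.47, edgeR adjusted p = 0.0079), whose protein is known to guard Rps26. The summed share of the 30 stress-induced genes averaged 0.538% in replicate 4 (0.327% to 0.794%) and 0.345% in replicate 5 (0.183% to 0.546%) of the variants. It was 0.14% in WT replicate 4 and 0.40% in WT replicate 5. This block may pair unlike libraries too, which was not tested.

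Replicates 4 and 5 were also set against replicates 1 to 3. This division of the libraries came from an earlier look at these data, so it is described without a test. From a fit with genotype and replicate group, the median log2 difference was -0.23 over the 138 and 0.01 over all genes, and 30 of the 138 were above 0, beside 51.6% of all genes. The summed share was not low in all of replicates 4 and 5, since it averaged 16.7% in replicate 4 and 22.0% in replicate 5 of the variants, against 21.7% in replicates 1 to 3 of the variants, and in WT replicate 5 held 16.6% and replicate 4 22.1%. The median thus averages over libraries with a low and with a high share. By class it was -0.20 over the 76 large-subunit genes (16 above 0), -0.26 over the 56 small-subunit genes (13 above 0) and -0.38 over the 5 stalk genes (0 above 0). In 19 of the 138 every value of replicates 4 and 5 lay below every value of replicates 1 to 3, beside 7.38% of all genes, and in 0 every value lay above, beside 3.75% of all genes. The other lists did not share one direction: 75 of 81 ribosome biogenesis genes were above 0 (median 0.37), 6 of 30 translation factors (-0.20), 10 of 18 regulators (0.13), 6 of 6 ribosomal protein chaperones (0.31), 1 of 8 ribosome-associated factors (-0.49) and 2 of 30 stress-induced genes (-1.47). Of the mating-type genes, 0 of 4 α-specific (-0.59) and 4 of 4 a-specific genes tested (1.46) were above 0. Depth moved with these groups, as given above, and its part in the result was not tested.

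**Figure D4:**
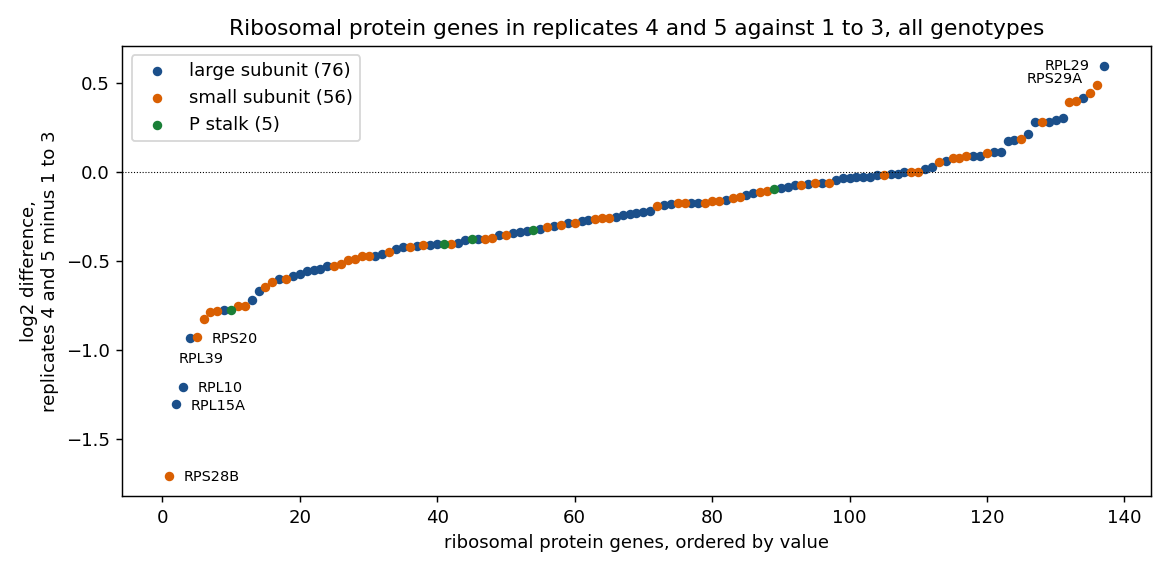
Log2 difference of replicates 4 and 5 minus replicates 1 to 3 over all genotypes (y axis) for the 137 ribosomal protein genes in order of value (x axis), coloured by subunit. Most genes lie below 0, RPS28B lies lowest at -1.70, and RPL29 lies highest at 0.59.

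RPS28B (chrXII:673131-673334, plus strand, R64), the less abundant copy for small-subunit protein S28, which in yeast takes part in the decay of its own transcript with Edc3, differed most. It stood at 20.5 (lowest), 30.6 (median) and 42.1 CPM (highest) in the 14 libraries of replicates 4 and 5, against 73.4, 101 and 132 CPM in the 21 libraries of replicates 1 to 3. The groups did not overlap, and the log2 difference was -1.70. RPL15A, the abundant copy for large-subunit protein L15, had 932, 1192 and 1596 CPM in replicates 4 and 5, against 2304, 2990 and 3818 CPM in replicates 1 to 3 (-1.30). RPL10, whose protein joins the large subunit in the last steps of its maturation, had 1067, 1444 and 1900.5 CPM, against 3006, 3324 and 3953 CPM (-1.20). RPL39 (-0.93) and RPS20 (-0.93) followed, and all 5 lay lower without overlap, in every genotype.

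A smaller number of genes lay on the other side. RPL29, which encodes a short protein of the large subunit, had 1730, 2542 and 3041 CPM in replicates 4 and 5, against 1365, 1643 and 1922 CPM in replicates 1 to 3 (0.59). RPS29A (0.49), RPS30B (0.44) and RPL7B (0.41) followed. The ranges of RPL29 overlapped, with replicate 4 of K152L (1730 CPM) the lowest of replicates 4 and 5. The highest row of the name rule was RPP1, the RNase P subunit, with 55.0, 79.6 and 93.7 CPM in replicates 4 and 5, against 39.2, 49.1 and 56.9 CPM in replicates 1 to 3 (0.68), which is the direction of the ribosome biogenesis genes.

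The division into experiments 1 and 2 follows the way the labels list the replicates under separate samples, and it was tested. Between experiment 2 (replicates 3 to 5) and experiment 1 (replicates 1 and 2), 27 of the 138 passed edgeR's test, 15 higher and 12 lower in experiment 2, beside 28% and 22.2% of all genes. In either direction, 50.1% of all genes passed. RPS28B (-0.82, adjusted p = 0.0072), RPL15A (-0.69, adjusted p = 0.0060) and RPS20 (-0.66, adjusted p = 0.0013) fell most, and RPL29 (0.50, adjusted p = 2.6e-04) and RPS29A (0.40, adjusted p = 0.0013) rose most after RPP1 (0.51, adjusted p = 3.9e-04). Replicate 3 belongs to experiment 2, but RPS28B stood at 73.4 to 132 CPM in it, against 85.8 to 122 CPM in replicates 1 and 2, far from the 20.5 to 42.1 CPM of replicates 4 and 5.

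The paired copies were compared as log2 (A/B) of their UMIs in each library, with 0.5 added to each. Copies that are nearly identical in sequence can share reads, and how such reads were assigned is not given in the sources used here, so the size of a ratio is uncertain while its change between libraries counted in the same way is less so. Of the 59 pairs, 35 were within 2-fold on average, 10 were more than 4-fold apart, copy A was the higher in 31, and the same copy was the higher in all 35 libraries in 43. The most unequal were RPL15 (4.66 ± 0.64, SD over 35 libraries, or 25.2-fold), RPL18 (3.89 ± 0.18), RPS28 (3.47 ± 1.01), RPS9 (-3.37 ± 0.43, with copy B higher) and RPS14 (2.97 ± 0.23). The lower copies RPS14B and RPS9A are, like RPL22B, known in yeast for regulated splicing of their own transcripts. The most equal were RPL19 (0.00 ± 0.13), RPP1A and RPP1B (-0.03 ± 0.14), RPS21 (-0.04 ± 0.16), RPL24 (-0.05 ± 0.08) and RPS16 (0.07 ± 0.08).

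By median, the ratios differed less between the Ste12 genotypes than between the replicate groups. The mean ratio of a variant differed from that of WT by a median of 0.04 and at most 0.24 (log2) over 354 values, and in replicates 1 to 3 by a median of 0.06 and at most 0.45. Between replicates 4 and 5 and replicates 1 to 3 the median difference was 0.26, and in 18 of the 59 pairs the 2 groups of libraries did not overlap. As single genes, 7.38% of all genes lay wholly below and 3.75% wholly above in replicates 4 and 5. No such share was computed for ratios of other genes, so the 18 pairs have no background. RPS28 changed most, with a mean ratio of 4.67 in replicates 4 and 5 against 2.67 in replicates 1 to 3. RPS28A alone stood at 529 (lowest), 821 (median) and 1010 CPM (highest) in replicates 4 and 5, against 555, 625 and 858 CPM in replicates 1 to 3, so that the 2 copies differed in direction by median. Added together, the RPS28 copies ranged from 549.7 to 1048 CPM over the 35 libraries.

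RPL37, a zinc-binding protein of the large subunit, had a ratio of 2.06 in replicates 4 and 5 against 1.13 in replicates 1 to 3, and RPL7, a large-subunit protein, one of 0.38 against 1.24, both without overlap. In RPL37 the log2 difference between the replicate groups was -0.72 for copy B and 0.21 for copy A, and copy B had 358, 547 and 659 CPM in replicates 4 and 5, against 746, 835 and 1177 CPM in replicates 1 to 3. RPL9, whose proteins are nearly identical, followed the libraries with a low ribosomal protein share. Its ratio was 0.62, 1.44, 1.20, 0.45, 0.47 and 0.52 in replicate 4 of A160P, K146D, K150A, K150I, K152L and S158H and 0.72 in WT replicate 5, against 1.95 to 2.13 in replicate 5 of the variants and 1.99 in WT replicate 4. In replicates 1 to 3 it was 1.80 to 2.37 in all genotypes. RPL15 and RPL9 completed the 5 most variable pairs, with SDs of 0.64 and 0.57.

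**Figure D5:**
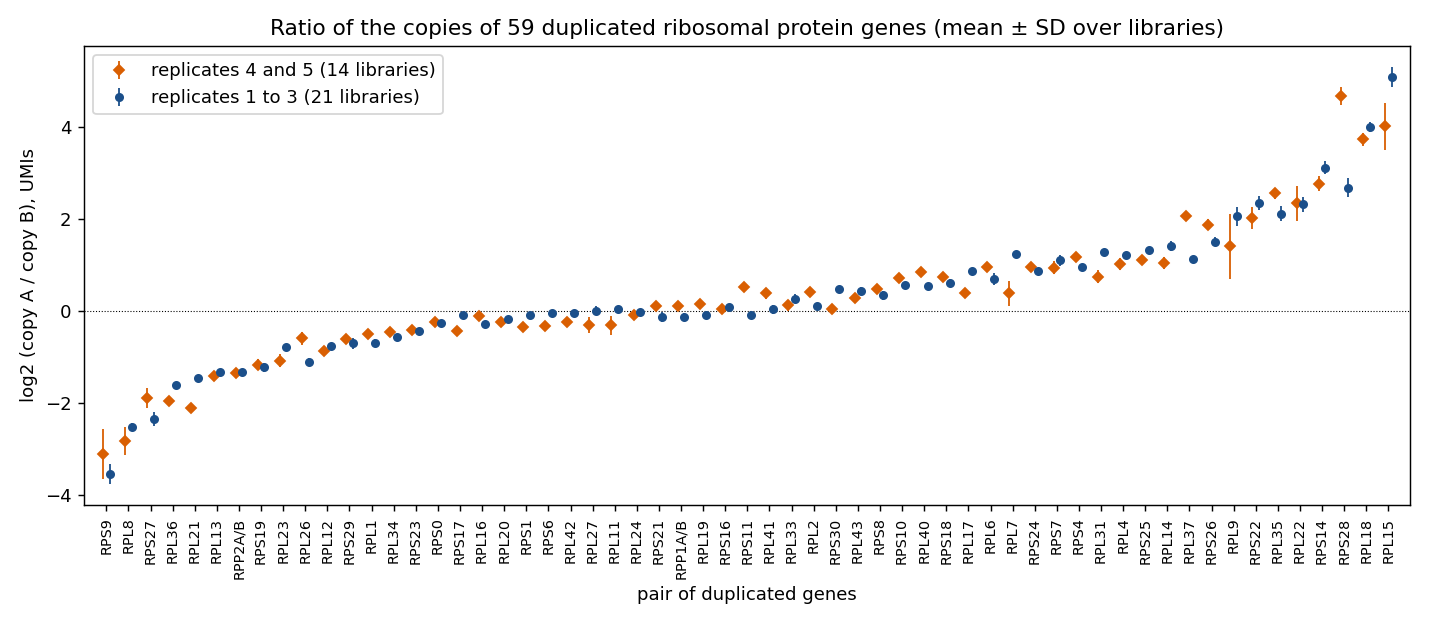
Log2 ratio of copy A to copy B (UMIs, y axis) for the 59 pairs (x axis), as mean ± SD over the 14 libraries of replicates 4 and 5 (orange) and the 21 libraries of replicates 1 to 3 (blue). Pairs run from RPS9, with copy B higher, to RPL15, with copy A higher, and RPS28 shows the widest gap, at 4.67 in replicates 4 and 5 and 2.67 in replicates 1 to 3.

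Calling cards were assigned to a gene when their peak lay up to 1000 bp before or 200 bp after its coding start, and a peak was called a site of a genotype when both of its libraries held 3 UMIs or more. The transposase-only control libraries of the series did not enter this rule, so it does not set apart insertions made without Ste12. The share of ribosomal protein genes with such a site was set beside that of all genes, without a test. At least 1 genotype had a site in 23 of 137 windows (16.8%), beside 15.3% of 6002 protein-coding genes. By genotype the count was 2 in A160P (1.46%, beside 1.68% of all genes), 6 in K146D (4.38%, beside 5.11%), 8 in K150A (5.84%, beside 4.23%), 6 in K150I (4.38%, beside 2.58%), 4 in K152L (2.92%, beside 2.10%) and 7 in S158H (5.11%, beside 3.10%), against 6 in WT (4.38%, beside 4.60%). Libraries held between 5904 and 12778 UMIs in peaks.

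A single ribosomal protein window had a site in all 7 genotypes, that of RPL42B, a large-subunit gene. The peak at chrVIII:383163-383356 (R64) held 408 and 550 UMIs in K150I, 256 and 208 in K152L, 31 and 39 in K146D, 23 and 15 in S158H, 14 and 11 in K150A and 3 and 9 in A160P, against 130 and 77 in WT. It also lies in the window of the neighbouring gene CHS7, an export factor for a chitin synthase, so the insertions cannot be assigned to either gene. The log2 fold change of RPL42B transcripts was 0.13 (SE 0.15) in K150I and 0.10 (SE 0.15) in K152L, within 1 SE of 0 in both.

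Other sites belonged to 1 to 3 genotypes. At RPS14B, whose window overlaps that of SOP4, a peak at chrX:73112-73226 held 163 and 139 UMIs in K152L, against 2 and 1 in WT, and a second at chrX:73287-73511 held 0 and 1 in K152L and 26 and 24 in K150I, against 54 and 28 in WT. RPS24B had 139 and 141 UMIs in A160P, against 1 and 0 in WT, RPL12B 75 and 67 in S158H, against 0 in both WT libraries, and RPS14A 57 and 35 in K146D, against 1 and 0 in WT. RPL9A, whose window overlaps that of TIP20, had a peak of 195 and 91 UMIs in WT that held 0 to 2 UMIs in every variant library. RPP1A had a site in K150I, K152L and WT, RPL18B, RPL31B and RPS21B sites in K150A and S158H, and the remaining sites, each of 1 genotype, were those of RPL14A, RPL38, RPL43B, RPP1B, RPS0A, RPS0B, RPS1A, RPS20, RPS25B, RPS6B, RPS7B, RPS8B and RPS9B, with RPL18B also holding one of WT alone. Peaks of RPL14A, RPL31B, RPL38, RPP1B, RPS0A, RPS0B, RPS20, RPS21B, RPS25B, RPS8B and RPS9B also lie in a neighbouring gene's window. So does the peak of RPL18B of WT alone, and none of these peaks can be assigned to 1 gene. The transcripts beside these sites did not pass the test: the log2 fold change was 0.17 (SE 0.12) for RPS14B in K152L, 0.13 (SE 0.13) for RPS24B in A160P, 0.07 (SE 0.13) for RPL12B in S158H and 0.08 to 0.22 (SE 0.31) for RPL9A over the 6 variants.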

How the data were processed

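Transcripts were captured by an oligo-dT primer with an 8-base UMI, tagmented and sequenced by the authors, who deposited 1 table of whole-number counts of UMIs per gene and library. The submitters' processing notes name Trim Galore 0.4.1, STAR, bcl2fastq, MACS2 and R64 without their roles, and the sources used here give neither the counter nor how reads shared by paralogs were treated. In K146D replicate 2, whose label lists 1 index, TDH3 held 100135 UMIs, more than the 65536 sequences of 8 bases, so UMIs were not counted by gene and sequence alone. The calling card table was deposited as the natural log of library-scaled UMIs plus 1, and whole UMIs were recovered for 100% of its values, within 0.001 of a whole number.

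Counts were tested with edgeR 4.0.16 (quasi-likelihood test, TMM, filterByExpr, all 35 libraries, genotype as the term) under R 4.3.3. URA3, used to delete STE12, was left out, and 6139 genes were tested. P-values were adjusted over all genes by Benjamini-Hochberg at 0.05. The script was tested on simulated data. The alternatives were RLE factors, DESeq2 1.42.0, no filter, pairwise fits, the experiment as a term, subsets of replicates, a replicate block and left-out libraries. Members and lists were chosen with earlier results of these data known. The genes named were those called in any variant, the 3 highest and 3 lowest fold changes in each variant, the 5 at each end of level, SD, replicate group difference and paralog ratio, the 5 pairs with the most variable ratio, those with a calling card site, and others said to be chosen afterwards. A gene that this rule takes is not reported here.

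Same-numbered variant and WT libraries deviated together. The correlation of their deviations was over 0.1 in 30 of 30 pairs (0.19 to 0.76 over all genes), which met the criterion for a paired fit. Other numbers of the same replicate group correlated as well (A160P replicate 1 with WT replicate 2 at 0.65, K146D replicate 5 with WT replicate 4 at 0.73 and with WT replicate 5 at 0.19), so the check does not tell the number from the replicate group. Over the 138 rows, replicate 5 of 6 of the 6 variants correlated best with WT replicate 4, and replicate 4 of 5 of them with WT replicate 5. Libraries of a genotype differed by more than sampling noise (chi-square per degree of freedom 1.86 to 75.4), so all were kept apart. Protein and promoter sequences of the genes were not used here, and copies of a pair were not compared in sequence.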

Additional observations from a re-analysis of the deposited data

Results flagged for a closer look

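In groups of 5 libraries, 7 of 105 groups tested had 1 library outside Dixon's 95% limit, and chance gives about 1 group in 20. In 4 of these the log2 ratio of RPL9A to RPL9B was far below that of the other replicates in replicate 4, at 0.62 in A160P, 0.45 in K150I, 0.47 in K152L and 0.52 in S158H. The other 4 libraries of each of these genotypes lay between 1.88 and 2.36. Replicate 4 of K150I was also apart in the ratio of RPS9A to RPS9B, at -2.46. The share of UMIs in large-subunit genes was high in replicate 5 of K146D, at 11.7%. The share in the 5 stalk genes was low in replicate 5 of WT, at 0.468%.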

How the results depend on the processing

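The count of ribosomal protein genes called against WT stayed 0 in all 6 variants with RLE factors, DESeq2, no filter, pairwise fits, the experiment as a term, URA3 kept, library sizes over other genes, RPP1 left out, experiment 2 alone, replicates 4 and 5 alone, the replicate block (0 called) and each library left out in turn. It was 10 over the 6 variants in experiment 1 alone (2 in A160P, 1 in K150A, 6 in K152L and 1 in S158H, beside 1.55%, 2.96%, 3.03% and 2.91% of all genes called higher there) and 18 in replicates 1 to 3 alone (7 in A160P, 1 in K150A, 2 in K150I, 7 in K152L and 1 in S158H). With the replicate block in replicates 1 to 3 it was 256 (79, 1, 39, 41, 77 and 19 in A160P, K146D, K150A, K150I, K152L and S158H), and with library sizes over other genes as well 243 (76, 1, 34, 36, 76 and 20). In this last fit 5.73%, 0.950%, 5.70%, 2.82%, 6.78% and 5.13% of all genes were called higher, and the shares for replicates 1 to 3 with and without the block are given above. Each sum adds 6 comparisons that share the same WT libraries. The cause of the differences between fits was not tested. Fewer samples entered these fits.

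The median log2 fold change over the 138 ranged, with 1 library left out, over 0.07 to 0.25 in A160P, 0.00 to 0.11 in K146D, 0.05 to 0.18 in K150A, 0.06 to 0.22 in K150I, 0.07 to 0.27 in K152L and 0.01 to 0.18 in S158H. Named genes changed sign 112 times over 26 gene and variant pairs, none of them called, with values between -0.09 and 0.43 in the main fit and -0.29 and 0.19 in the alternatives. At a minimum of 1 UMI in place of 3, the windows with a site numbered 6 in A160P, 12 in K146D, 11 in K150A, 9 in K150I, 7 in K152L, 13 in S158H and 10 in WT, beside 5.08%, 9.15%, 7.43%, 4.53%, 3.88%, 6.83% and 6.33% of all genes. At 10 UMIs they numbered 1, 4, 5, 5, 3, 4 and 4 in the same order, beside 0.350%, 2.80%, 2.13%, 1.83%, 1.67%, 1.28% and 2.92%. Depth limits RPL39 most, with 9 to 111 UMIs per library. The planned comparisons of protein identity between copies and of promoter motifs were not run.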
